A study of Mus musculus with 12 samples.

Results

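Interferon-stimulated genes were examined in mouse T-lineage acute lymphoblastic leukemia (T-ALL, which arises from developing T cells) after dexamethasone, a synthetic glucocorticoid. The set held 37 named antiviral and signalling genes, found by symbol among the 38339 genes of the deposited table. Of these, 29 reached at least 1 FPKM (sequenced fragments per kilobase of transcript, relative to all that mapped) in at least 6 of 12 libraries and were tested, among 12358 tested genes in all. The other 8 (Mx1, Rsad2, Oas1a, Oasl1, Oasl2, Ifit1, Ifit3 and Ifi44) were not tested and are given by their values.

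The samples were bone marrow cells from recipient mice of 6 transplanted primary leukemias, on a strain background given as C57BL/6 x 129Sv/Jae F1. Recipients were moribund when given vehicle (VEH, 6 libraries) or dexamethasone (DEX, 6 libraries), and marrow was taken 4 hours later. Each leukemia gave 1 VEH and 1 DEX library, paired here by the code that both titles share and numbered 1 to 6: leukemia 1 is 73A-46B, leukemia 2 is 73M-19A, leukemia 3 is 78A-143B, leukemia 4 is 2M-127B, leukemia 5 is 20M-116B and leukemia 6 is JW-81-59B. Each arm of a leukemia was therefore a single recipient. Red cells were lysed and the labels name no sort, and granulocyte markers, a sign of host cells that remained, were present in every library. The labels used here give no dose, age, genotype or driver of the leukemias.

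Type I interferons bind the receptor IFNAR1/IFNAR2, which activates the kinases JAK1 and TYK2. The complex ISGF3, which contains STAT2 and IRF9, then binds the interferon-stimulated response element (ISRE) in the promoters of its targets. The products sense viral RNA, degrade it, block translation or restrict viral entry, and USP18 shuts the receptor down again. Glucocorticoids act through the receptor Nr3c1, a transcription factor that raises its own target genes and is known to repress part of the interferon response in immune cells.

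The file held no counts, and each library's FPKM added up to 1466471 to 2019058. Reading the most common low value as 1 fragment gave an estimated 11300000 to 63100000 fragments per library, the lowest and the highest both being VEH libraries (leukemias 1 and 2). The highest estimate is uncertain. Only 6.8% of the genes read in that library lay near the value, beside 22.5 to 35.4% in the others. T-lineage markers (9 genes, among them Lck, Thy1 and Cd3e) summed to between 1361 and 2183 FPKM in every library. Of these, 4 fell with DEX (Cd5, Cd3g, Lck and Cd2) and none rose. Known targets of the drug rose in 6 of 8 tested cases. Nr3c1 went from 56.8 ± 18.3 to 90.5 ± 22.3 FPKM (SD, n = 6 each), a log2 difference of 0.69 ± 0.08 (SE) with a limma adjusted p of 0.00163. Fkbp5 rose by 1.06 ± 0.12, Tsc22d3 by 1.38 ± 0.19 and Ddit4 by 1.69 ± 0.15 on the log2 scale, with limma adjusted p of 0.00179, 0.00355 and 0.00063. Granulocyte markers (14 genes) summed to 2341 to 9060 FPKM in VEH and 1532 to 5436 in DEX. The sum was lower with DEX in every leukemia but the third, while the mean log2 level of the same markers was higher in leukemias 3 (5.17 to 5.70) and 4 (5.23 to 5.42).

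To show what the pathway's response element looks like in these genes, the 250 bases before the transcription start were read from RefSeq (GRCm38.p6). In a pair of the genes shown this window held the core of the element, and in the other pair it held no match. Each is written 5′ to 3′ on the strand of its gene. Capitals mark the core of the ISRE, GAAA and GAAA again with any 2 bases between them, or the reverse complement, TTTC and TTTC; sequences without capitals hold no match. Isg15 lies at chr4:156200819-156201068, minus strand, and is a member that fell. Ifit3 lies at chr19:34583279-34583528, plus strand, and stood under 1 FPKM in every library. Ifi35 lies at chr11:101448162-101448411, plus strand, and is a member that rose. Ifit2 lies at chr19:34550444-34550693, plus strand, next to Ifit3, and was the member of that family with the highest level. Ifit2 has a further RefSeq start downstream, whose window also held no match.
Isg15: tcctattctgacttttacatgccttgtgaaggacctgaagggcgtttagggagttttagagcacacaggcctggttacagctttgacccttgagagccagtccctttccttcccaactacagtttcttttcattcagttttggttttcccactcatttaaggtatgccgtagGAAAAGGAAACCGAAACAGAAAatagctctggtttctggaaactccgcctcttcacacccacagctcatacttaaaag
Ifit3: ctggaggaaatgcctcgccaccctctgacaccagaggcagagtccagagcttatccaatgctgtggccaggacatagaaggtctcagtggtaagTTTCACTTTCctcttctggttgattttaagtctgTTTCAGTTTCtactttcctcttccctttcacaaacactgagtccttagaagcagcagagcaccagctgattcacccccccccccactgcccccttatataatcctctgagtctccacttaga
Ifi35: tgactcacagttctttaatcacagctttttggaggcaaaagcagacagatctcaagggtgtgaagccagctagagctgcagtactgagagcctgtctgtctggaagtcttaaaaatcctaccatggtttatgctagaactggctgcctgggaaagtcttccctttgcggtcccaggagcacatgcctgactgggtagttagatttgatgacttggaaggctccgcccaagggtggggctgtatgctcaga
Ifit2: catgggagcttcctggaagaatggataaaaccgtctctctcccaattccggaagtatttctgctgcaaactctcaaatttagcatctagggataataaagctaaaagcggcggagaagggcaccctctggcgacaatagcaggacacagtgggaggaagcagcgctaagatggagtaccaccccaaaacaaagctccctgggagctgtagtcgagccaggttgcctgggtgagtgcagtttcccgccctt

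The Isg15 window held 3 overlapping matches, at -78 to -69, -72 to -63 and -66 to -57 relative to the start. The Ifit3 window held 2, at -156 to -147 and -122 to -113. RefSeq promoter windows were at hand for 27 of the 37 members, and those of Usp18, Mx2, Mx1, Oas2 and Rtp4 were not among them. Over windows from 250 bases before to 50 after the start, read on both strands, 12 of the 27 (44.4%) held the motif, against 1079 of 27025 genes (3.99%). The 12 were Bst2, Ddx58, Eif2ak2, Ifih1, Ifit1, Ifit3, Ifitm3, Isg15, Oas1a, Oas3, Rsad2 and Stat2. Of these, 8 were tested, with a median log2 difference of -0.12. Another 12 tested members, whose windows held no match, had a median of -0.21. The glucocorticoid response element, searched as AGAACA and TGTTC with any 3 bases between them, was in 0 of the 27 windows and in 14 of 27025 genes (0.0518%). A match is a description of these letters and says nothing of binding. An element outside the window, at another start or with other letters would be missed, so no match does not mean no element.

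With DEX, 3 members rose (Usp18, Mx2 and Ifi35) and 3 fell (Oas2, Isg15 and Rtp4), and 23 of 29 did not pass the threshold. Calls were made at a limma adjusted p under 0.05 over all 12358 genes; by this rule 4.27% of all tested genes were higher and 9.28% were lower. Read against these shares, 3 of 29 was near the background for falls and above it for rises, there by few genes. The median log2 difference over the 29 was -0.11, beside -0.05 over all genes, and 22 of 29 (75.9%) lay below 0, beside 60.3% of all genes. In 12 of 29 members (41.4%) the DEX value was lower in at least 5 of 6 leukemias, beside 30.2% of all genes. All differences are on the log2(FPKM + 1) scale, which understates the change of low genes. The VEH and DEX libraries of no tested member were fully apart; over all genes 0.388% had every DEX library above every VEH library and 1.34% had every one below. In whole marrow, fewer cells of a type and less RNA per cell cannot be told apart.

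**Figure D1:**
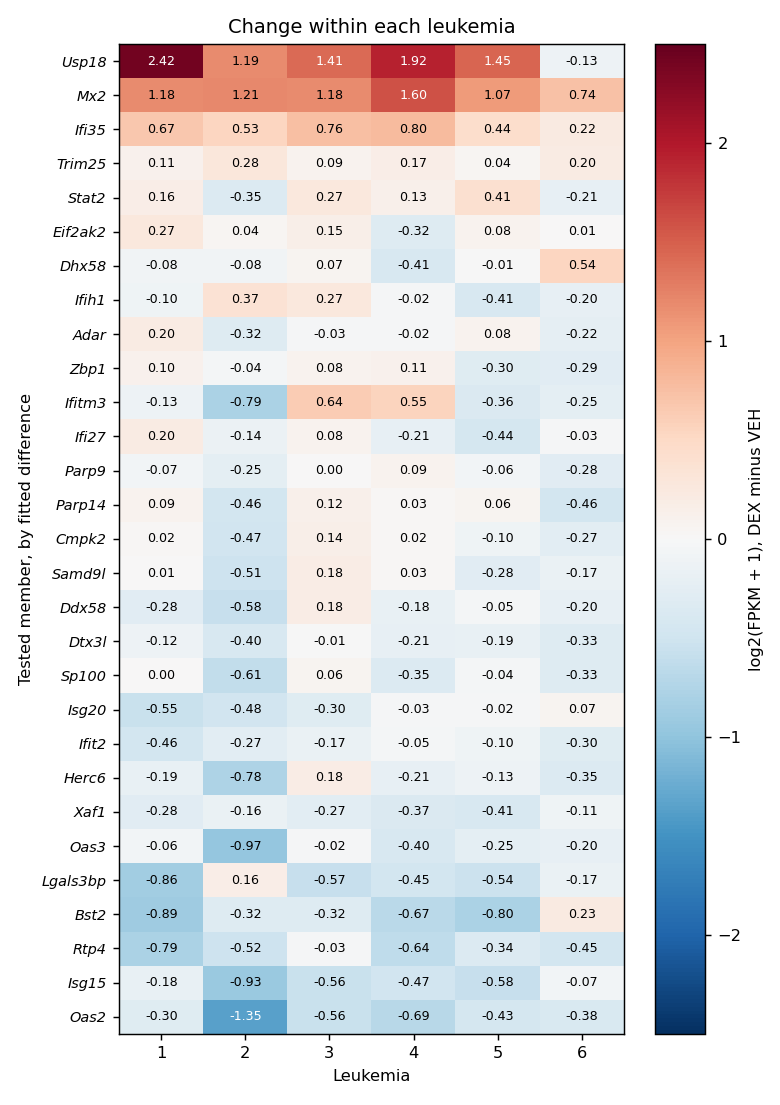
Log2 difference (DEX minus VEH, log2(FPKM + 1)) of each tested member in each leukemia as a colour scale, members ordered by their fitted difference. Usp18 and Mx2 show the deepest red, except Usp18 in leukemia 6 (-0.13), and the column of leukemia 2 holds the largest fall of 13 members.

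Usp18 encodes the protease that removes ISG15 from proteins and the main brake on the type I interferon receptor. In the order of leukemias 1 to 6, used for all such lists here, VEH libraries held 5.83, 20.7, 21.2, 11.3, 20.2 and 14.8 FPKM, and 35.6, 48.5, 57.9, 45.3, 57.2 and 13.4 FPKM were measured with DEX. The DEX libraries of leukemias 1 to 5 all stood above every VEH library, and that of leukemia 6 stood below its own VEH library. The mean rose from 15.7 ± 6.23 to 43.0 ± 16.7 FPKM (SD, n = 6), a ratio of 2.74. The log2 difference was 1.38 ± 0.27 (limma adjusted p = 0.0131), with leukemia 1 at 2.42 and leukemia 6 at -0.13. Among all tested genes this was the difference ranked 67 from the highest. Without leukemia 6 it was 1.68 ± 0.17 (limma adjusted p = 0.00136). In leukemia 6 the log2 difference was 0.61 for Fkbp5, 2.05 for Tsc22d3 and 2.18 for Ddit4. Usp18 lies on chromosome 6 (121245906 to 121270917, plus strand, GRCm38). None of the 4 other tested genes within 50 kb (Slc6a13, Tuba8, Pex26 and Gm15856) passed the threshold, with differences from -0.17 to 0.06.

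Mx2 belongs to the Mx family of dynamin-like GTPases, and its RNA rose in 6 of 6 leukemias. The annotation used here (GENCODE M21) lists mouse Mx2 as a polymorphic pseudogene, so a working protein cannot be read from its RNA. VEH libraries held 6.86, 7.51, 0.57, 1.46, 0.88 and 0.5 FPKM, and DEX libraries 16.9, 18.7, 2.56, 6.48, 2.95 and 1.5 FPKM. Leukemias 1 and 2 were high in both arms, so the arms overlapped although every pair moved the same way. The ratio of DEX to VEH FPKM lay between 2.46 and 4.49 in the 6 pairs. The log2 difference was 1.17 ± 0.11 (limma adjusted p = 0.00107), ranked 92 from the highest of all tested genes. Its paralog Mx1, listed there as protein-coding but known to carry inactivating deletions in many inbred laboratory strains, lies 72400 bp away on chromosome 16 and reached 1 FPKM in only 5 libraries. Mx1 was at 1.84, 2.8, 0.34, 0.67, 0.77 and 0.27 FPKM in VEH and at 3.37, 9.51, 0.73, 1.74, 0.65 and 0.54 FPKM in DEX, higher in 5 of 6 leukemias. With no filter on low values its log2 difference was 0.56, with a limma adjusted p of 0.23. Reads that both paralogs could give may be split between them, and how the authors' counting treated such reads is not given in the sources used here.

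Ifi35, an interferon-induced leucine zipper protein, also rose in 6 of 6 leukemias. VEH libraries held 12.2, 10.6, 13.3, 15.8, 12.2 and 17.6 FPKM, and DEX libraries 20.0, 15.8, 23.2, 28.3, 16.8 and 20.8 FPKM. The groups overlapped, since the VEH library of leukemia 6 stood above the DEX libraries of leukemias 2 and 5. The mean went from 13.6 ± 2.61 to 20.8 ± 4.55 FPKM, a ratio of 1.53, and the log2 difference was 0.57 ± 0.09 (limma adjusted p = 0.00575). Ifi35 lies on chromosome 11 (101448407 to 101458698, plus strand), and none of 5 other tested genes within 50 kb passed. The nearest, Vat1, lies 47 bp away, with a log2 difference of -0.25.

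**Figure D2:**
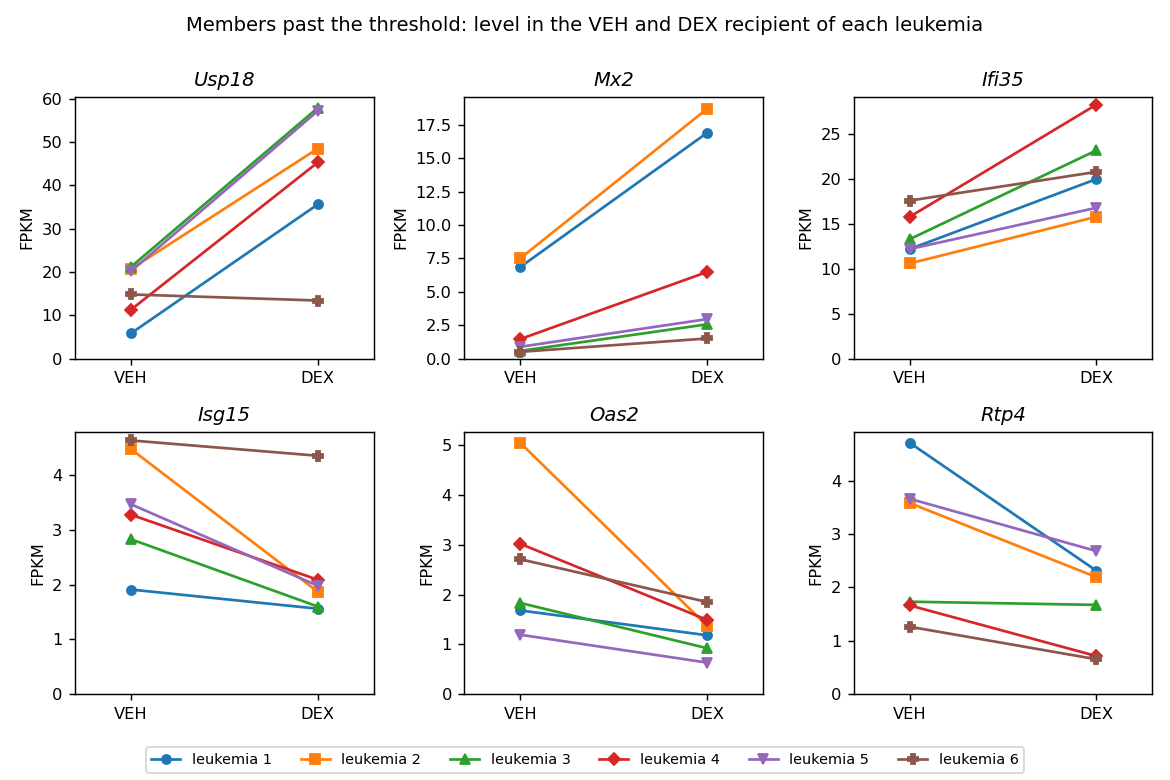
FPKM of the 6 members past the threshold in each library, with a line joining the VEH and DEX library of a leukemia. All lines of Mx2 and Ifi35 go up and all of Isg15, Oas2 and Rtp4 go down, and 1 line of Usp18 (leukemia 6) goes from 14.8 to 13.4.

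The 3 members that fell stood at low levels. Oas2, which makes the 2-5A signal that activates RNase L, held 1.68, 5.05, 1.83, 3.02, 1.19 and 2.71 FPKM in VEH and 1.18, 1.37, 0.92, 1.49, 0.63 and 1.85 FPKM in DEX. It was lower in every pair, and its mean fell from 2.58 ± 1.39 to 1.24 ± 0.431 FPKM. The log2 difference was -0.62 ± 0.15 (limma adjusted p = 0.0259), and leukemia 2, at -1.35, stood apart from the others, whose lowest was -0.69. Without leukemia 2 it was -0.47 (limma adjusted p = 0.035).

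Isg15 encodes the ubiquitin-like modifier that USP18 removes. It held 1.91, 4.48, 2.83, 3.28, 3.47 and 4.64 FPKM in VEH and 1.56, 1.87, 1.6, 2.09, 1.98 and 4.36 FPKM in DEX. Every pair was lower with DEX, leukemias 1 and 6 by the least. The mean fell from 3.44 ± 1.03 to 2.24 ± 1.06 FPKM, and the log2 difference was -0.47 ± 0.12 (limma adjusted p = 0.0388). Isg15 and Usp18, modifier and protease of the same cycle, thus moved in opposite directions in leukemias 1 to 5.

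Rtp4, a receptor transport protein with antiviral activity, held 4.71, 3.58, 1.73, 1.66, 3.66 and 1.26 FPKM in VEH and 2.31, 2.19, 1.67, 0.71, 2.68 and 0.65 FPKM in DEX. Leukemia 3 moved by only -0.03 on the log2 scale. The mean fell from 2.77 ± 1.40 to 1.70 ± 0.855 FPKM, a log2 difference of -0.46 ± 0.12 (limma adjusted p = 0.0321).

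Leaving out any 1 leukemia kept the limma calls of Usp18, Mx2 and Ifi35, with log2 differences of 1.17 to 1.68, 1.08 to 1.25 and 0.52 to 0.64. In leukemias 2, 5 and 6 alone the calls of Usp18 (0.84 ± 0.27, limma adjusted p = 0.12) and Ifi35 (0.40 ± 0.13, 0.12) ended. With these 3 leukemias 188 of all genes were called higher and 257 lower, beside 528 and 1147 with all 6. With no filter on low values that of Usp18 ended as well (limma adjusted p = 0.0777). The call of Isg15 ended without leukemia 1, 2, 3, 4 or 5, that of Rtp4 without leukemia 1, 2, 4, 5 or 6, and that of Oas2 without leukemia 4 or 5. The log2 differences of these 3 falls, whose adjusted p over all 6 leukemias was 0.0259 to 0.0388, stayed between -0.55 and -0.37 for Isg15, -0.55 and -0.40 for Rtp4, and -0.68 and -0.47 for Oas2. In VEH, Usp18 and Ifi35 averaged 15.7 and 13.6 FPKM, while Oas2, Isg15, Rtp4 and also the riser Mx2 (2.96 FPKM) lay between 2.58 and 3.44. With a granulocyte marker term added beside the leukemia block, Usp18 (1.62 ± 0.31, limma adjusted p = 0.0226), Mx2 (1.26 ± 0.13, 0.00404) and Ifi35 (0.67 ± 0.09, 0.00881) stayed called. Isg15 (-0.48 ± 0.15, limma adjusted p = 0.0974), Oas2 (-0.55 ± 0.18, 0.10) and Rtp4 (-0.39 ± 0.13, 0.13) did not. Without the term these 3 stood at -0.47 ± 0.12, -0.62 ± 0.15 and -0.46 ± 0.12, so their SE grew with it. Over all genes the fit with the term called 319 higher and 593 lower, beside 528 and 1147 in the main fit. The part of granulocytes in these falls was not tested.

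The 4 genes of the ISG15 pathway split 1 higher, 1 lower and 2 not past the threshold. Trim25, the ubiquitin ligase that activates RIG-I, averaged 20.1 FPKM in VEH and 22.6 in DEX and was higher in 6 of 6 leukemias. Its difference of 0.15 ± 0.06 had a limma adjusted p of 0.15. Herc6, the mouse ligase that attaches ISG15, averaged 6.78 and 5.47 FPKM (-0.25 ± 0.12, limma adjusted p = 0.20).

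None of the 5 sensors passed, and their differences lay between -0.19 and 0.01. Ddx58 (RIG-I) averaged 22.4 FPKM in VEH and 19.7 in DEX. Adar, which edits double-stranded RNA, averaged 22.7 and 22.0, and Zbp1, a Z-form nucleic acid sensor that can trigger cell death, 11.6 and 11.1. Ifih1 (MDA5) held 2.04, 3.69, 2.53, 0.42, 1.36 and 1.29 FPKM in VEH and 1.84, 5.08, 3.25, 0.4, 0.78 and 1.0 in DEX. It was lowest in leukemia 4 in both arms. Dhx58 (LGP2) averaged 1.98 and 2.17 FPKM.

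Of the 5 oligoadenylate synthetases and relatives only Oas2 and Oas3 were tested. Oas3, whose gene lies 3244 bp from Oas2 on chromosome 5, was lower in 6 of 6 leukemias (2.61 to 1.95 FPKM on average), with a difference of -0.32 ± 0.14 and a limma adjusted p of 0.15. Oas1a held 0.39 to 2.08 FPKM in VEH and 0.09 to 1.19 in DEX, and near-identical Oas1 copies lie beside it, so its value is uncertain. Oasl1 and Oasl2 stood at 0.11 to 1.44 and 0.08 to 1.15 FPKM in VEH.

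The IFIT family, which binds viral RNA ends, stood at unequal levels within 1 gene cluster. Ifit2 held 10.7, 14.1, 14.9, 9.38, 15.0 and 2.55 FPKM in VEH and 7.5, 11.6, 13.2, 9.02, 13.9 and 1.88 in DEX. Leukemia 6 was far below the others in both arms. All 6 pairs were lower with DEX, by -0.22 ± 0.08 on the log2 scale (limma adjusted p = 0.094). Ifit3, which lies 7111 bp from Ifit2, stood at 0.12 to 0.68 FPKM in VEH, and Ifit1 at 0.08 to 0.49. Ifit3 has a near-identical copy, so its value is uncertain.

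Among the other antiviral effectors only Mx2 passed. Bst2 (tetherin), which holds budding virions at the membrane, averaged 22.3 ± 8.63 FPKM in VEH and 17.4 ± 11.3 in DEX (-0.46 ± 0.14, limma adjusted p = 0.0585). It was higher with DEX in leukemia 6, from 30.8 to 36.4 FPKM, and without that leukemia the difference was -0.60 (limma adjusted p = 0.0111). Ifitm3, which blocks viral entry, held 23.3, 13.2, 6.55, 6.73, 17.6 and 3.8 FPKM in VEH and 21.2, 7.18, 10.8, 10.3, 13.5 and 3.04 in DEX. Its DEX value was above VEH in leukemias 3 and 4 and below it in the rest, with a difference of -0.06 ± 0.18 (limma adjusted p = 0.86). The mean log2 level of the granulocyte markers was higher with DEX in leukemias 3 and 4 and lower in the rest. Their summed FPKM, however, went from 2365 to 2289 in leukemia 4. The monocyte and macrophage marker sum went from 127.4 to 223.1 FPKM in leukemia 3 and from 165.2 to 189.1 in leukemia 4. It was lower with DEX in the other leukemias. With the granulocyte term the Ifitm3 difference was 0.25 ± 0.12 (limma adjusted p = 0.26). The part of these cells in the Ifitm3 values was not tested. Eif2ak2 (PKR), which stops translation, averaged 12.1 and 12.5 FPKM, Samd9l 17.6 and 16.0, and the nuclease Isg20 6.33 and 5.18. Cmpk2 averaged 1.47 and 1.28 FPKM. Rsad2 (viperin), 12751 bp from Cmpk2, reached 1 FPKM only in the VEH library of leukemia 2 (2.52).

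The signalling and chromatin partners held the most abundant member. Sp100, a scaffold of nuclear bodies, held 86.9, 109.0, 71.6, 194.0, 94.3 and 66.2 FPKM in VEH and 87.2, 71.1, 74.6, 152.0, 91.4 and 52.3 in DEX (-0.21 ± 0.09, limma adjusted p = 0.16). Leukemia 4 stood above the rest in both arms. Dtx3l, a ubiquitin ligase that works with PARP9, held 30.0, 34.3, 26.1, 26.7, 34.0 and 39.6 FPKM in VEH and 27.6, 25.7, 25.9, 22.9, 29.6 and 31.3 in DEX. It was lower in 6 of 6 pairs (-0.21 ± 0.07, limma adjusted p = 0.0764). Parp9, which overlaps Dtx3l by 682 bp on the opposite strand, averaged 27.0 ± 2.55 and 25.2 ± 0.659 FPKM; whether the counting used strand is not given in the sources used here. Parp14 averaged 13.2 and 12.3 FPKM. Stat2, a subunit of ISGF3, averaged 5.95 ± 0.36 and 6.35 ± 1.09 FPKM (0.07 ± 0.11, limma adjusted p = 0.71).

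In the last group, Rtp4 apart, none passed. Ifi27 held 46, 58.1, 56.1, 73.0, 74.3 and 98.9 FPKM in VEH and 52.9, 52.5, 59.3, 62.9, 54.6 and 96.5 in DEX, highest in leukemia 6 in both arms (-0.09 ± 0.08, limma adjusted p = 0.50). Lgals3bp, a secreted galectin-binding glycoprotein, held 43.0, 27.7, 41.7, 33.3, 34.8 and 32.8 FPKM in VEH and 23.2, 31.1, 27.8, 24.2, 23.7 and 29.1 in DEX. It was higher with DEX in leukemia 2 alone, and the difference of -0.40 ± 0.12 had a limma adjusted p of 0.0564. Xaf1, a pro-apoptotic partner of XIAP, averaged 7.34 ± 1.16 and 5.99 ± 1.37 FPKM and was lower in 6 of 6 pairs (-0.27 ± 0.08, limma adjusted p = 0.0531). Ifi44 averaged 0.262 and 0.133 FPKM.

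**Figure D3:**
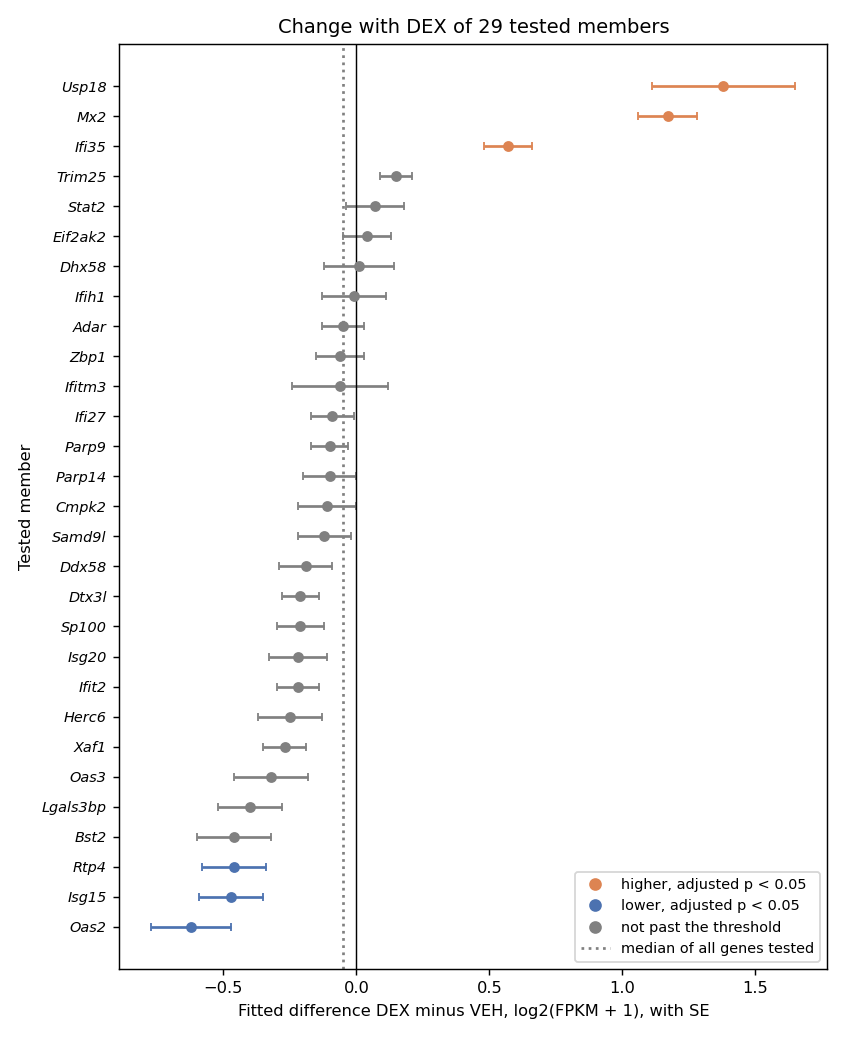
Log2 difference (DEX minus VEH) of each tested member with its moderated SE as bars, ordered by size. The 6 members past the threshold are marked; Usp18 (1.38) and Mx2 (1.17) stand apart from the rest, which lie between -0.62 and 0.57.

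Levels also differed between leukemias. By the limma F test over the leukemia terms of the same fit, 20 of 29 members differed between leukemias, while 51.1% of all tested genes did. The widest range of leukemia means was that of Mx2 (2.74 on the log2 scale; limma F test, adjusted p = 2.6e-05), followed by Ifitm3 (2.4), Ifit2 (2.27) and Ifih1 (1.92). Stat2 had a range of 0.21 (limma F test, adjusted p = 0.88), and Parp9 also did not pass (0.74). High leukemias were not the same for each gene: Mx2 was highest in leukemias 1 and 2, Ifitm3 in 1 and 5, Sp100 in 4, and Ifi27 and Isg15 in 6. Of the 29 members, 8 had their highest VEH level in leukemia 2 and 8 in leukemia 6, while 10 had their lowest in leukemia 4.

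**Figure D4:**
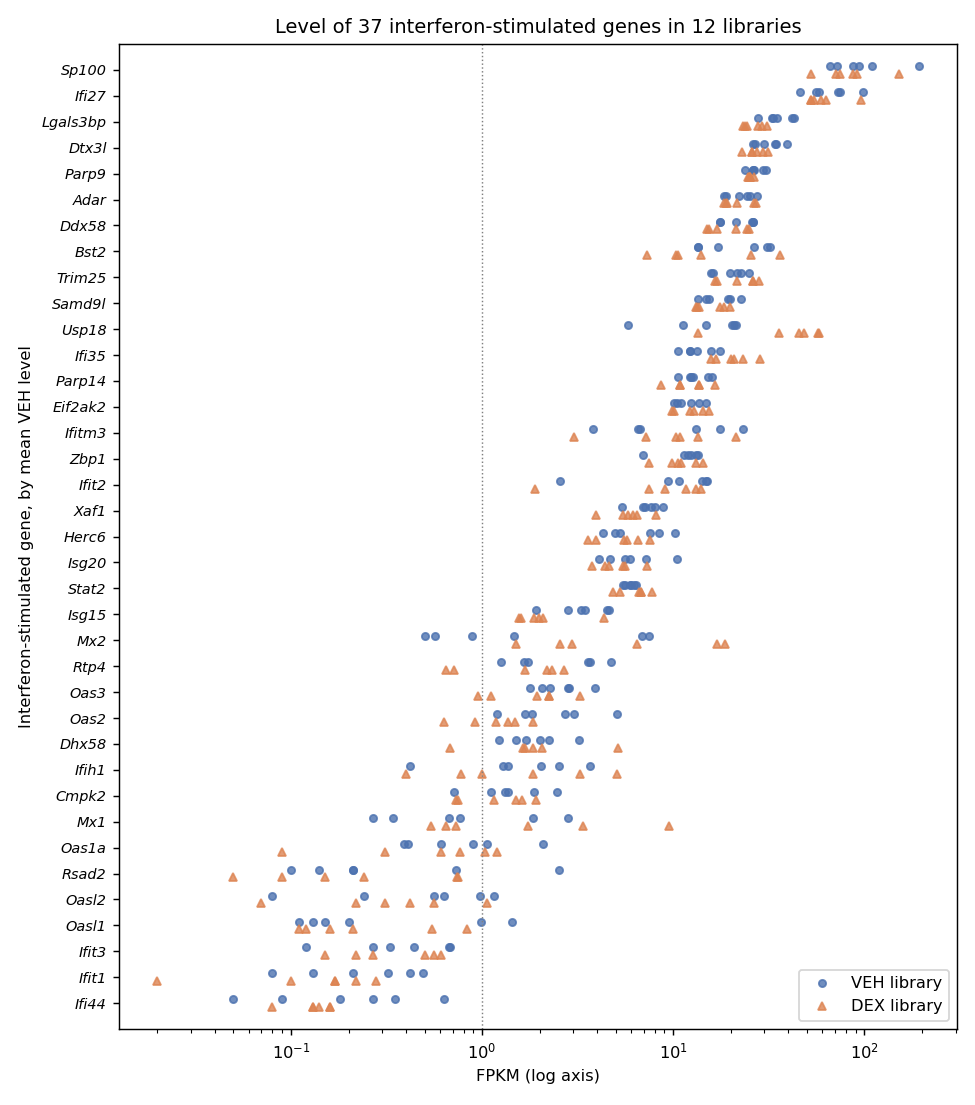
FPKM of all 37 members in the 12 libraries on a log axis, one point per library, VEH and DEX in separate colours. The members span from under 1 FPKM (7 by their VEH mean) to Sp100 at 104.

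Leukemia by leukemia, the members' median difference was -0.07, -0.32, 0.08, -0.05, -0.10 and -0.20, beside -0.03, -0.12, -0.02, -0.01, -0.03 and -0.09 over all genes. In leukemia 3, 18 members were higher and 11 (37.9%) lower, beside 53.2% of all genes lower. In leukemias 2 and 6, 22 of 29 (75.9%) were lower, beside 60.9 and 59.9% of all genes. In leukemia 5, 21 (72.4%) were lower, beside 55.2% of all genes. Protein-coding genes made up 30.1, 29.4 and 30.2% of summed FPKM in VEH in leukemias 2, 5 and 6. With DEX their share there was 24.5, 25.3 and 25.8%. In leukemias 1, 3 and 4 it went from 32.4, 29.1 and 29.1% to 31.5, 29.7 and 29.1%. Summed FPKM of all genes in leukemias 2, 5 and 6 went from 1507527, 1556034 and 1664239 in VEH to 1910539, 1799765 and 2019058 with DEX. A lower share of a larger sum need not be a lower level. The part of the shift in share in the members' differences was not tested. Leukemia 2 gave the largest fall of 13 of the 29 members, and 9 were lower there by more than 0.5. Its VEH library also held the highest value of 6 of the 8 untested members among the VEH libraries, such as Rsad2 at 2.52, Mx1 at 2.8 and Oasl1 at 1.44 FPKM. The same library had the highest erythroid marker sum (1178 FPKM, with 151 in its DEX partner) and the highest B-lineage sum (55.7, with 10.2 in DEX), and its granulocyte sum went from 4612 to 1680. In leukemia 3 the granulocyte sum went from 2341 to 3363. The part of these cells in the members' differences was not tested for single leukemias.

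Other cell types were read from their markers. The monocyte and macrophage sum was 127.4 to 665.5 FPKM in VEH and 63.9 to 411.6 in DEX, with 0 of 10 tested markers past the threshold. Of the 14 tested granulocyte markers Cebpe (-0.68) and Ltf (-0.91) fell, and the median difference of the 14 was -0.45. NK-lineage markers summed to 131 to 649 FPKM in VEH and 112 to 402 in DEX, while Ncr1, which defines these cells, did not exceed 0.23 FPKM. The 10 markers of plasmacytoid dendritic cells, potent interferon producers, summed to 181 to 1201 FPKM in VEH and 126.99 to 958 in DEX. Of 7 tested, Ccr9 fell (-0.31) and the median was -0.31, while the defining marker Siglech was at 0 to 1.21 FPKM in VEH and 0.02 to 0.58 in DEX. Bst2 is a member and also a marker on that list. Dendritic markers summed to 12.3 to 85.4 FPKM in VEH and 14.4 to 55.8 in DEX. Of 4 tested, Flt3 rose (0.46) and none lay below 0.

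The rest of the pathway, 136 listed genes that are not members, was read for comparison. Of 113 tested, 5 (4.42%) were higher and 9 (7.96%) lower, with a median of -0.09. The interferons themselves were barely seen: of 17 type I, II and III ligand genes in the table none could be tested, 10 were listed at 0 in every library, and the highest value was 1.16 FPKM (Ifnk). Ifnb1 was listed at 0 in 11 of 12 libraries, and Ifng reached at most 0.06 FPKM. Receptor chains Ifnar1 (24.0 and 24.2 FPKM) and Ifnar2 (24.2 and 22.0) differed by 0.01 and -0.12, with limma adjusted p of 0.95 and 0.37. The kinase Jak1 rose from 105 to 123 FPKM (0.23 ± 0.06, limma adjusted p = 0.0396), and Tyk2 averaged 7.64 and 7.40. Irf9, a subunit of ISGF3, averaged 11.3 and 8.83 FPKM (-0.32 ± 0.11, limma adjusted p = 0.0778). Irf7, the interferon-induced regulator of interferon genes, averaged 6.87 and 6.88 FPKM.

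Of 7 tested feedback genes the phosphatases Ptpn6 (103 to 68.7 FPKM, -0.59 ± 0.10, limma adjusted p = 0.00662) and Ptpn2 (36.6 to 30.4, -0.27 ± 0.07, 0.0421) fell. Socs1, an inhibitor of the kinases, averaged 7.28 and 6.18 FPKM (-0.21, limma adjusted p = 0.13). Upstream of interferon, Traf3 (-0.39 ± 0.08, limma adjusted p = 0.0153) and the DNA sensor cGAS (Mb21d1; -0.42 ± 0.12, 0.0493) fell, among 14 tested. Of 59 other type I-induced genes, Ly6e (341 to 440 FPKM) and Slfn5 (16.1 to 21.5) rose. In the same list Sp110 (85.6 to 65.3 FPKM), Nampt (8.60 to 5.67) and Mndal (45.6 to 38.1) fell. Of 26 genes induced mainly by interferon gamma, the peptide transporters Tap2 (71.5 to 109 FPKM) and Tap1 (31.6 to 38.3) rose, and the guanylate-binding proteins Gbp4 (25.6 to 17.9) and Gbp6 (14.9 to 7.09) fell. Set beside the 4.27% higher and 9.28% lower of all genes, the 2 and 3 calls among 59 and the 2 and 2 among 26 do not set these lists apart.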

How the data were processed

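The authors deposited 1 table of FPKM, not log-transformed. Per the submitters' processing notes, the build was mm10, and Bowtie2 (version 2), RSEM and edgeR were used, in roles not stated. The annotation version, the strand setting and filters are not given in the sources used here, and depth is unknown beyond the estimate from low values. Gene positions came from GENCODE M21 on GRCm38, the assembly of mm10.

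No scaling was added before taking log2(FPKM + 1). Genes with at least 1 FPKM in at least 6 of 12 libraries were tested with limma 3.58.1 in R 4.3.3, with leukemia as a block and an intensity trend in eBayes (residual degrees of freedom 5, prior 3.99). Tests were two-sided, with Benjamini-Hochberg adjustment over 12358 genes and a threshold of 0.05. Errors are the moderated SE for log2 differences and SD for FPKM. All adjusted p-values are from limma. The pairing comes from the leukemia code in the titles; after removal of group means, libraries of 1 leukemia correlated at 0.55 to 0.82 across genes, and those of different leukemias at up to 0.21. The p-values cover the spread over 6 leukemias. The method was run on simulated data with normal noise at the levels and spread of the fit, the form that limma assumes. Skewed values and low fragment counts were therefore not covered. The simulated noise was independent between genes, so shifts shared by the genes of a library were not covered.

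Every member is named. Values of every library are given for members past the threshold, the 4 most abundant and the 4 with the widest range over leukemias. Of other lists up to 4 called genes with the smallest p are named, plus genes fixed by name. The members and all lists were chosen with earlier results of these data known. In all, 20 alternative settings were run.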

Additional observations from a re-analysis of the deposited data

Results flagged for a closer look

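For each of the 29 tested members the VEH values, the DEX values and the within-leukemia differences were searched for a leukemia far from the other 5. Of 87 such groups 8 had one. Chance gives about 1 in 20 for independent groups of normally distributed values. These groups share genes and leukemias and FPKM is skewed, so no excess can be read from the 2 rates. Leukemia 6 was the one in 5 of the 8 groups. Usp18 was at 13.4 FPKM with DEX there, and the nearest other leukemia was at 35.6. Isg15 was at 4.36 FPKM with DEX, the nearest other being 2.09, and Ifi27 at 96.5 FPKM with DEX, the nearest being 62.9. Ifit2 stood low in both arms, at 2.55 FPKM in VEH (nearest 9.38) and 1.88 in DEX (nearest 7.5).

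The other 3 were spread over leukemias. The Oas2 difference was -1.35 in leukemia 2, with the nearest at -0.69. Zbp1 was at 6.94 FPKM in VEH in leukemia 1 (nearest 11.4), and Parp9 at 26.4 FPKM with DEX in leukemia 3 (nearest 25.1).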

How the results depend on the processing

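Over 20 alternative settings and 29 members, 484 of 573 single-gene results kept their direction and their side of the threshold. The 6 called members were less steady than this pooled count for the falls. The call ended in 12 of 20 settings for Isg15, 11 of 19 for Rtp4 and 7 of 19 for Oas2. For the rises it ended in 3 of 20 for Usp18, 2 of 20 for Ifi35 and 1 of 19 for Mx2. Without the replicate block, 0 members were higher and 0 lower (35 and 46 of all genes), 0 and 0 of the other pathway genes. Leaving out 1 leukemia gave 3 members higher each time, 0 to 3 lower (0 without leukemia 4 or 5) and 13 to 21 differing between leukemias (13 without leukemia 4 or 6). The lower members were not always the same genes, as Lgals3bp passed without leukemia 2 and Bst2 without leukemia 6. Leaving out 1 leukemia was also read for the other genes. It gave 2 to 6 other pathway genes higher and 3 to 11 lower, and 233 to 532 higher and 425 to 1042 lower over all genes. With no filter on low values 2 members were higher (Usp18 no longer passed, limma adjusted p = 0.0777) and 0 lower, with 1 higher and 3 lower of the other pathway genes (181 and 370 of all genes). Scaling moved the split: TPM gave 3 higher and 7 lower members (267 and 1820 of all genes, 12.8% higher against 31.5%), 11 differing between leukemias, and 1 and 15 other pathway genes. TPM also moved the median of all genes from -0.05 to -0.17 and that of the members to -0.23. A fixed sum without the 100 highest genes gave 6 lower members and 3 higher other pathway genes. Quantile normalization gave 1 lower member and 5 lower other pathway genes (43.6% of called genes higher), and median-of-ratios scaling 2 lower members (44.7%). Leukemias 1, 3 and 4 alone gave 2 lower other pathway genes (523 of all genes lower). The 2 lower members there were Lgals3bp and Bst2 (limma adjusted p = 0.023 and 0.0348). The calls of Oas2, Isg15 and Rtp4 ended in these leukemias (limma adjusted p = 0.0923, 0.14 and 0.17). Leukemias 2, 5 and 6 alone gave 1 member higher, 0 lower, and 1 and 2 other pathway genes (188 and 257 of all). The members' median difference there was -0.22, beside -0.09 over all genes. In leukemias 1, 3 and 4 it was 0.01, beside -0.02. This split of the leukemias matches the protein-coding share of FPKM, which fell with DEX mainly in leukemias 2, 5 and 6 of these same data. Each part holds only 3 leukemias, and what sets the 2 medians apart was not tested. The granulocyte term with the replicate block gave 1 lower member and 5 lower other pathway genes (319 and 593 of all). That member was Lgals3bp (-0.53, limma adjusted p = 0.0486), which did not pass in the main fit.

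All 37 reversals were in members not past the threshold. Dhx58 was at -0.04 and -0.01 with pseudocounts of 0.1 and 0.5, -0.09 in TPM, -0.01 under the fixed sum, -0.14 in leukemias 1, 3 and 4, -0.08 with the granulocyte term, and -0.10 to 0.09 when 1 leukemia was left out. Quantile normalization gave Ifitm3 0.02, Ifih1 0.02 (also under median-of-ratios), Zbp1 0.0024 and Adar 0.0033. TPM gave Eif2ak2 -0.09 and Stat2 -0.05. Leukemias 1, 3 and 4 gave Cmpk2 0.06, Parp9 0.01, Ifitm3 0.35, Ifih1 0.05, Zbp1 0.10, Adar 0.05, Parp14 0.08, Samd9l 0.07 and Ifi27 0.02, and leukemias 2, 5 and 6 gave Stat2 -0.05. The granulocyte term gave Cmpk2 0.01, Ifitm3 0.25, Zbp1 0.00057, Adar 0.01 and Parp14 0.04. Leaving out 1 leukemia gave Eif2ak2 -0.01 to 0.11, Ifih1 -0.09 to 0.07, Ifitm3 -0.20 to 0.09 and Adar -0.10 to 0.0036. The cause of these changes was not tested. Cmpk2, Ifih1 and Dhx58 held an estimated 55, 64 and 65 fragments in their lowest library, so their small differences are uncertain. Isg15, Rtp4, Ifitm3 and Mx2 held fewer, at 16, 27, 40 and 43.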

Other observations

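The genes around Isg15 on chromosome 4 were looked at after their values were seen. All 5 other tested genes within 50 kb were lower with DEX in 6 of 6 leukemias, and 3 of them passed the threshold by limma: Agrn (-0.42, adjusted p = 0.0195), AW011738 (-0.46, adjusted p = 0.0281) and Noc2l (-0.40, adjusted p = 0.0361). Perm1 (-0.33, limma adjusted p = 0.0547) and Plekhn1 (-0.22, limma adjusted p = 0.12) did not pass. Isg15 itself was at -0.47. The surroundings of the other tested members were listed in the same way, and this one was the most extreme. No other tested member had more than 1 neighbour that passed as lower, and over all tested genes 9.28% were lower. A fall of the region as a whole was not tested.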
